A study of Mus musculus with 10 samples.

Results

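The 45 genes described here build or watch over the mitotic spindle of the mouse: the kinases and sensors of the spindle checkpoint, the chromosomal passenger complex and shugoshin, the inner and outer kinetochore, the regulators of anaphase, the centrosome, and cohesin. They were named by gene symbol, and the rule that names them uses no measured value. RNA was sequenced from embryonic stem cells (ESC) of strain C57BL/6 in 3 groups, each with 3 libraries. WT cells carry no DIDO3 mutation. DIDO3ΔE16 cells (labelled DIDO3_exon16 mutant) lack exon 16 of Dido1, the exon used by the DIDO3 isoform alone, which was floxed and removed with SOX2-Cre in the mice from which they derive. DIDO3ΔCT+HADIDO3 cells (labelled DIDO3_dCT+HADIDO3 mutant) carry an earlier deletion of the DIDO3 C terminus, which affects the same exon, and were given back HA-tagged DIDO3. All were grown with LIF on mitomycin C-treated mouse embryonic fibroblasts or on gelatin, and the sources do not say from how many clones each line came.

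The authors counted RNA over features that each hold a UCSC 3′UTR and the 2 kb downstream of it, so the values describe the 3′ ends of transcripts rather than whole genes. Features with the same coordinates were added up and are called a site. The 45 genes had 72 of the 28730 sites of the annotation, and 108 of its 43031 features. Of these genes, 23 had a single site and 22 had several, and for the latter the most abundant site stands for the gene unless another is named. In 8 genes the 3′UTR of this main site, without the 2 kb added to it, ends over 1 kb upstream of the annotated gene end. They are Cenpc1 (32.7 kb), Bub1 (22.3 kb), Plk4 (8.47 kb), Cep192 (6.76 kb), Mad2l1 (6.23 kb), Cdca8 (5.34 kb), Cenpk (2.77 kb) and Knl1 (1.38 kb). Where the 3′UTR is short, the value comes nearly all from the 2 kb downstream. Examples are Knl1 (3′UTR of 44 of 2044 bases), Cdc20 (62 of 2062), Cenpk (103 of 2103) and Ndc80 (116 of 2116). Cep192 (137 of 2137), Espl1 (141 of 2141), Smc1a (164 of 2164), Kntc1 (192 of 2192) and Cenpt (194 of 2194) are close to them. Cenpl, Cenpf and Nuf2 lie on chromosome 1, which was raised as a whole in DIDO3ΔCT+HADIDO3, and their values are given apart from those of the other 42. Values are TPM, the length-normalized share of a site in its library. TPM values and statements on the overlap of groups were taken before scaling between libraries, and log2 fold changes after it. Where 9 values are given, they follow the order WT replicates 1, 2-3 and 4, then DIDO3ΔE16 replicates 1 to 3, then DIDO3ΔCT+HADIDO3 replicates 1 to 3.

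In mitosis, the kinetochore assembles on centromeric chromatin marked by the histone variant CENP-A, and its outer layer binds microtubules. Kinetochores without microtubules recruit the MAD and BUB proteins, which hold back CDC20 and the anaphase-promoting complex, so that securin and cyclin B stay and cohesin keeps the sister chromatids together. ESC divide rapidly with a short G1 phase, and many genes of this machinery are transcribed mainly in late S, G2 and M phase through promoter elements known as CHR (cell cycle genes homology region) and CCAAT boxes.

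Promoter windows of RefSeq (build GRCm38.p6; 250 bases before to 50 bases after each start) were matched to 38 of the 45 genes, in 42 windows. The stretches below show these cell cycle elements where members hold them, a feature that their choice did not use. Capitals mark the matched letters, and each stretch runs 5′ to 3′ on the strand of the gene.
Knl1, chr2:119047138-119047167, plus strand, CHR: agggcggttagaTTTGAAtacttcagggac
Bub1, chr2:127831828-127831857, minus strand, CHR variant: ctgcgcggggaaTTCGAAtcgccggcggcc
Ttk, chr9:83834684-83834713, plus strand, CHR on the opposite strand: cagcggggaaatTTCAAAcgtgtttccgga
Cenpa, chr5:30666890-30666919, plus strand, CHR: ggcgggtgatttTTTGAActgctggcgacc
Plk1, chr7:122159453-122159482, plus strand, CHR: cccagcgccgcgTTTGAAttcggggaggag
Aurka, chr2:172370521-172370550, minus strand, CHR: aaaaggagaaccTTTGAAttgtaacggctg
Cdc20, chr4:118437344-118437373, minus strand, CHR: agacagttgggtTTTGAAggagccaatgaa
Cenpe, chr3:135212539-135212567, plus strand, CCAAT box: acgctgcgccacCCAATccgctgcaacct
Zwint, chr10:72654797-72654825, plus strand, CCAAT box: aatcgactccggCCAATgaaaagaggtga

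The letters TTTGAA, or TTCAAA on the other strand, stood in 18 of the 42 windows (42.9%), against 17.9% of all 32851 windows. The variant TTCGAA, which reads the same on both strands, stood in 4 windows (9.52%, against 1.56% of all), and CCAAT or ATTGG in 30 (71.4%, against 37.4%). One of the CHR forms together with a CCAAT box was found in 18 windows (42.9%), against 7.52% of all windows; matches of the different motifs may overlap, as they do at Cdca8. Of the genes whose values stand out below, Knl1 has a CHR without CCAAT, and no match was found for Nuf2 and Mad1l1. A gene without a match may lack these letters or lack a matched window. A match is a run of letters and no proof of a binding site.

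Depth was 1.46 to 2.62 Gb of bases over the features of a library, so that a site at 1 TPM was covered on average by 0.434 to 0.775 reads at each base. Libraries are grouped here by the first 4 characters of the run identifier in their names. Such a group is called a flow cell family, a batch that the labels do not define. WT replicates 1 and 4 are of 1 family (C7A9) and all remaining libraries of another (C79M). A fit with the family as a covariate thus sets each mutant against WT replicate 2-3 alone. The comparison between the mutants lies within 1 family, but DIDO3ΔE16 replicate 2 has another full run identifier than the other mutant libraries. At the site farthest downstream of Dido1, which ends DIDO3 transcripts, TPM was 13.7 to 17.9 in WT, 0.307 to 0.546 in DIDO3ΔE16 and 10.9 to 12.1 in DIDO3ΔCT+HADIDO3. This site does not stand for the whole gene. The most abundant Dido1 site had 4.775 to 4.903 TPM in WT, 81.65 to 96.08 in DIDO3ΔE16 and 7.302 to 8.649 in DIDO3ΔCT+HADIDO3. The site farthest upstream had 48.48 to 51.64, 6.16 to 7.047 and 43.76 to 46.59 TPM in the same order. The summed TPM of the G2 and M phase list was 1639 to 1730, 1584 to 1686 and 1638 to 1796 in the 3 groups, which overlapped, and so did that of the S phase list (2205 to 2618, 2142 to 2567 and 2484 to 3099). The sum of 10 fibroblast markers was 57.9 to 64.8 in WT, 128 to 136 in DIDO3ΔE16 and 92.0 to 99.1 in DIDO3ΔCT+HADIDO3, with Dcn and Lum at 0 in WT and Col3a1 and Twist2 at 0 in DIDO3ΔCT+HADIDO3. Of those tested against WT, 7 of 8 were called higher in DIDO3ΔE16, while in DIDO3ΔCT+HADIDO3 2 of 4 were called higher and 2 lower. Germ layer markers summed to 90.9 to 98.1, 115 to 126 and 54.4 to 60.3. Of 7 tested against WT, 3 were called higher and 2 lower in DIDO3ΔE16, and 0 higher and 4 lower in DIDO3ΔCT+HADIDO3. ESC markers summed to 5147 to 6376, 6723 to 7208 and 5249 to 7164. Of these 10, 0 were called in DIDO3ΔE16, and 1 was called higher and 2 lower in DIDO3ΔCT+HADIDO3. The part of these shifts in the results below was not tested, and in bulk RNA fewer cells of a type and less RNA per cell cannot be told apart.

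The spindle genes were abundant in ESC, with a median of 43.8 TPM over the 45 most abundant sites, against 9.34 over all genes. Among members detected in every library, the mean TPM ranged from 2.29 for Cenpt, a centromere protein, to 390 for Rad21, the kleisin subunit of cohesin. The 43 members other than Aurka and Plk1 could be compared in all 3 contrasts. A site was called when its log2 fold change was 0.7 or more in size and its adjusted p under 0.05 (limma with Benjamini-Hochberg adjustment over all sites, on log2(TPM + 0.1)); all adjusted p-values below are of this kind, and ± after a log2 fold change is the standard error. The labels do not say that replicates are separate cultures, so p-values measure only the spread between these samples. For a single site, an exact permutation test of 3 libraries against 3 has a smallest p of 0.1.

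**Figure D1:**
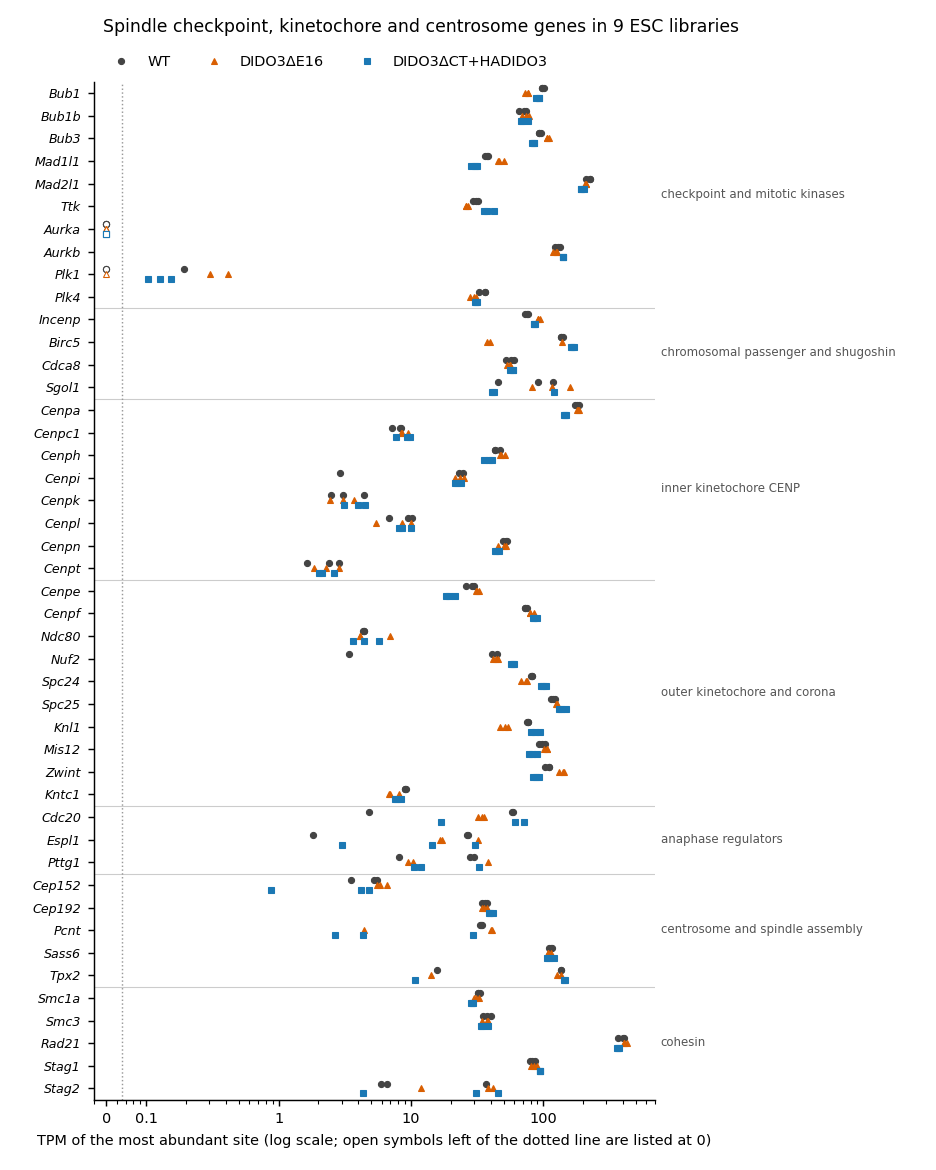
TPM of the most abundant site of each of the 45 genes on a log axis, grouped by role; each point is 1 library, with colour and shape by group, and open symbols are listed at 0. The 9 values of most genes lie close together, and 11 genes have libraries of 1 group more than 3-fold apart.

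No member was called in DIDO3ΔE16 relative to WT (0 of 43 by limma, where 16% of the most abundant sites of all genes were called), and none in DIDO3ΔCT+HADIDO3 relative to WT (0 of 43, against 18.1%). At an unadjusted p under 0.05 there were 13 and 21 of 43, against 47.8% and 51.4% of all genes. Between the mutant lines, 2 of 43 were called, Cenpe and Knl1, against 27.7% of all genes, and 19 had an unadjusted p under 0.05, against 58.5%. An adjusted p under 0.05 at any size of change was reached by 11 members in DIDO3ΔE16 (3 higher and 8 lower than WT), against 37.4% of all genes. In DIDO3ΔCT+HADIDO3 there were 16 (2 higher and 14 lower), against 42.7%, and between the lines 16 (10 higher and 6 lower in DIDO3ΔE16), against 52.8%. The median log2 fold change of the members was −0.03, −0.11 and 0.06 in the 3 comparisons in this order, beside −0.00, −0.05 and 0.05 over all genes. Without the 3 genes of chromosome 1, 40 members were tested, of which 0, 0 and 2 were called and 11, 16 and 15 had an adjusted p under 0.05, with medians of −0.04, −0.15 and 0.07.

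These counts come with a limit on precision. In 11 of the 45 members, 10 of which were tested, libraries of 1 group differed more than 3-fold, with a largest ratio between 3.71 and 14.8 in those tested, and none of the 10 was called in any comparison. For these genes, which include Cdc20, Pttg1 and Espl1, the absence of a call says little. Leaving them out, a choice made after seeing the data, left 33 tested members, with 0, 0 and 2 called. Their remaining counts at an adjusted p under 0.05 were 11, 15 and 15. The 11 members at this adjusted p in DIDO3ΔE16 against WT became 6 without WT replicate 1 or without WT replicate 2-3 and 7 without DIDO3ΔE16 replicate 2. With the flow cell family as a covariate, WT replicate 2-3 alone stands for WT, so no count is given for that fit. The median standard error of the steady members was 0.0532 on the log2 scale.

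**Figure D2:**
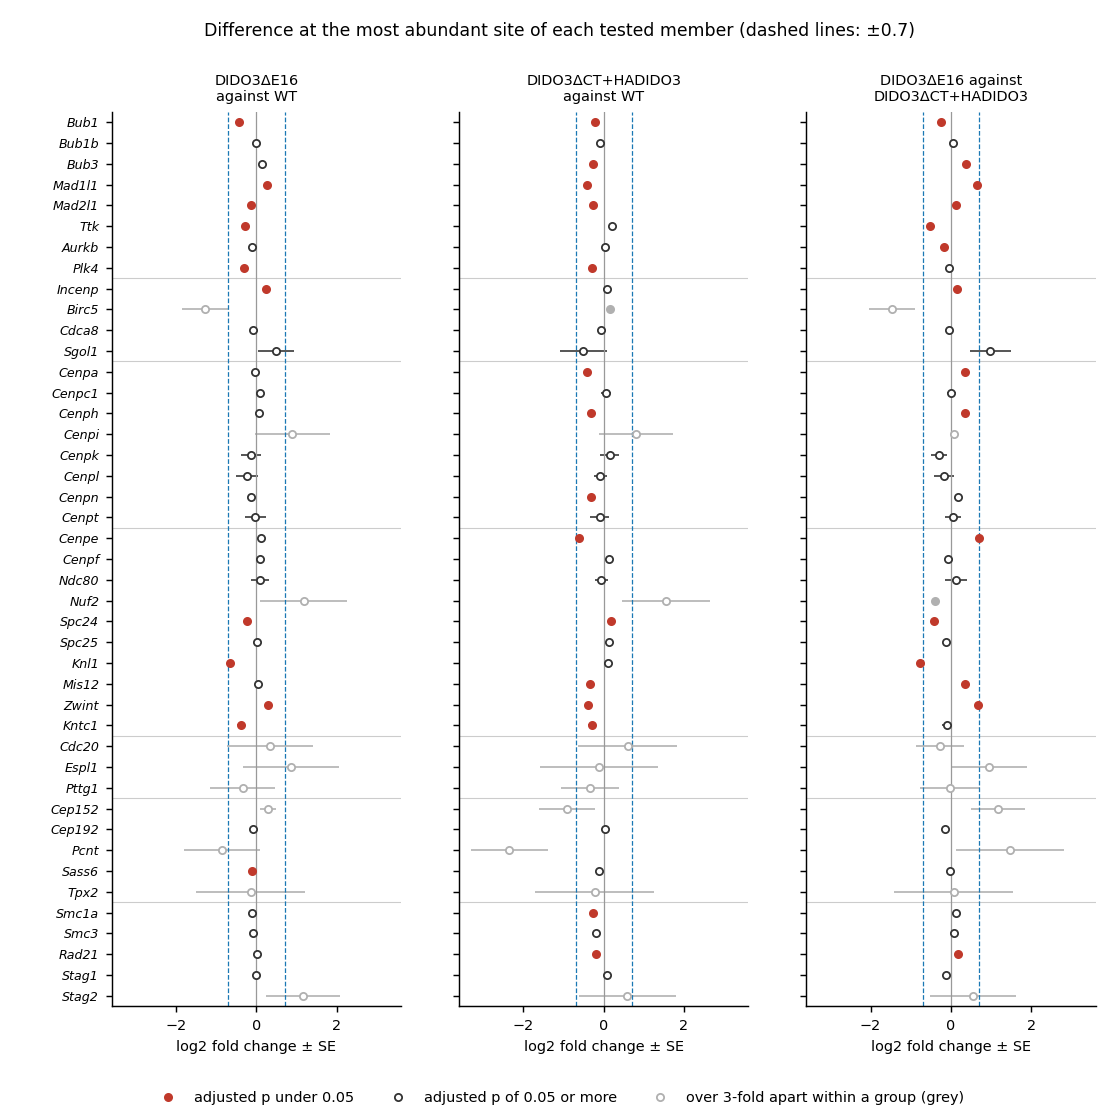
Log2 fold change (with its standard error) of the most abundant site of the 43 tested genes in each of the 3 comparisons; filled points had an adjusted p under 0.05, grey points belong to genes whose libraries differed more than 3-fold within a group, and dashed lines mark ±0.7. Only Knl1 and Cenpe are filled and past the lines, both between the mutant lines, and wide error bars belong mostly to the grey points.

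The checkpoint kinases and sensors were steady in the 9 libraries, and most differences passed the adjusted p without reaching the fold threshold. Bub1, the kinase that marks centromeric chromatin for shugoshin, had 101, 97.1 and 97.3 TPM in WT, 76.3, 73.3 and 77.0 in DIDO3ΔE16 and 88.6, 92.6 and 92.5 in DIDO3ΔCT+HADIDO3. All libraries of both mutants lay below WT, with the lowest values in DIDO3ΔE16. The log2 fold change was −0.44 ± 0.03 in DIDO3ΔE16 (adjusted p = 0.000926) and −0.21 ± 0.03 in DIDO3ΔCT+HADIDO3 (adjusted p = 0.00446), and −0.25 ± 0.04 between the lines (adjusted p = 0.00276). The 3′UTR of this site (mm10, chr2:127821448-127823853, minus strand) ends 22.3 kb upstream of the annotated end of the gene. At the end of the gene (chr2:127798200-127801242) a weaker site had 14.7, 12.1 and 11.5 TPM in WT, 8.20, 9.98 and 9.99 in DIDO3ΔE16 and 4.34, 4.95 and 7.62 in DIDO3ΔCT+HADIDO3. Here the order of the mutants was the other way round, and DIDO3ΔCT+HADIDO3 was the lowest group without overlap. The gene-end site fell by 1.31 ± 0.22 on the log2 scale in DIDO3ΔCT+HADIDO3 (adjusted p = 0.00833), and was 0.78 ± 0.22 higher in DIDO3ΔE16 than in DIDO3ΔCT+HADIDO3 (adjusted p = 0.0332); both were called, the latter in 11 of 17 alternatives. DIDO3ΔE16 differed from WT there by −0.50 ± 0.12 (adjusted p = 0.0307).

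Ttk, the MPS1 kinase that starts checkpoint signalling at the kinetochore, also had 2 sites. The main one, at the end of the gene (chr9:83872069-83874390, plus strand), had 31.9, 31.2 and 29.6 TPM in WT, 25.9, 26.9 and 26.1 in DIDO3ΔE16 and 35.3, 37.3 and 42.4 in DIDO3ΔCT+HADIDO3. The groups did not overlap, with DIDO3ΔE16 lowest and DIDO3ΔCT+HADIDO3 highest. The log2 fold change was −0.29 ± 0.04 in DIDO3ΔE16 (adjusted p = 0.0057), 0.20 ± 0.07 in DIDO3ΔCT+HADIDO3 (adjusted p = 0.0642) and −0.52 ± 0.06 between the lines (adjusted p = 0.00185). An inner site 2.9 kb upstream (chr9:83869320-83871493) was low, with 2.33, 1.87 and 1.80 TPM in WT, 2.06, 2.09 and 2.30 in DIDO3ΔE16 and 3.50, 3.86 and 3.92 in DIDO3ΔCT+HADIDO3. WT and DIDO3ΔE16 overlapped there, and DIDO3ΔCT+HADIDO3 stood above both. It was called in DIDO3ΔCT+HADIDO3 relative to WT (0.79 ± 0.13, adjusted p = 0.00795) and between the lines (−0.76 ± 0.11, adjusted p = 0.00279).

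Mad1l1 and Mad2l1 encode the pair of proteins that generates the checkpoint signal. Mad1l1 had 37.8, 38.4 and 36.4 TPM in WT, 50.3, 46.0 and 45.2 in DIDO3ΔE16 and 31.4, 28.6 and 30.6 in DIDO3ΔCT+HADIDO3. Its groups did not overlap, and the mutants lay on opposite sides of WT: the log2 fold change was 0.26 ± 0.06 in DIDO3ΔE16 (adjusted p = 0.0235) and −0.42 ± 0.05 in DIDO3ΔCT+HADIDO3 (adjusted p = 0.00364), a difference of 0.66 ± 0.07 between the lines (adjusted p = 0.00104). Mad2l1 had 224, 223 and 208 TPM in WT, 205, 212 and 211 in DIDO3ΔE16 and 192, 194 and 202 in DIDO3ΔCT+HADIDO3. It was the most abundant sensor, and only DIDO3ΔCT+HADIDO3 was clear of WT (−0.26 ± 0.03, adjusted p = 0.00332; in DIDO3ΔE16, −0.12 ± 0.03, adjusted p = 0.0314).

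Bub3, which carries BUB1 and BUBR1 to kinetochores, had 92.1, 95.8 and 93.3 TPM in WT, 111, 106 and 107 in DIDO3ΔE16 and 84.7, 84.6 and 82.6 in DIDO3ΔCT+HADIDO3. As for Mad1l1, WT lay between the mutants, but only the lower level in DIDO3ΔCT+HADIDO3 passed the adjusted p against WT (−0.26 ± 0.04, adjusted p = 0.00672; in DIDO3ΔE16 0.14, adjusted p = 0.0545). Between the lines Bub3 differed by 0.38 ± 0.04 (adjusted p = 0.00121). The site lists 2 features, and when single features were taken in place of their sum the sign turned, to −0.35 between the lines (adjusted p = 0.00654) and 0.24 in DIDO3ΔCT+HADIDO3 against WT (adjusted p = 0.527). Bub1b, which encodes the checkpoint effector BUBR1, had 65.2 to 77.5 TPM in all libraries with overlap of all groups, and its largest log2 fold change was −0.09 (adjusted p = 0.445). Plk4, the kinase that starts centriole duplication, had 36.2, 36.2 and 32.8 TPM in WT, 27.7, 29.9 and 30.9 in DIDO3ΔE16 and 30.7, 30.4 and 31.6 in DIDO3ΔCT+HADIDO3. Both mutants lay below every WT library, at −0.31 ± 0.06 (adjusted p = 0.0135) and −0.28 ± 0.05 (adjusted p = 0.00894), and did not differ past the threshold from each other (−0.05, adjusted p = 0.461).

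The mitotic kinases Aurka and Plk1 could not be compared. Aurka, which matures centrosomes, was listed at 0 in all 9 libraries, and the site of Fam210b on the opposite strand, which overlaps it, had 218 to 262 TPM. Plk1, with roles from mitotic entry to cytokinesis, was listed between 0 and 0.417 TPM, beside an opposite-strand neighbour, Ern2, at 142 to 195 TPM in WT and DIDO3ΔE16 and 3.49, 17.9 and 131 in DIDO3ΔCT+HADIDO3. Gene-end sites of Plk4 and Cdca8 were also listed at 0 throughout, next to opposite-strand sites of Mfsd8 (7.05 to 13.4 TPM) and Epha10 (160 to 183 TPM). Of the 11 member sites that overlap a site on the opposite strand, 3 were at 0 in every library. Over all sites 9.54% of the 4781 with such an overlap were at 0, and 8.75% of the 23949 others. Both kinases are known to be needed in dividing cells, the command recorded in the files names no strand option, and the part of the opposite strand in these zeros was not tested; no statement on the expression of Aurka or Plk1 was made from them.

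The chromosomal passenger complex, which corrects wrong attachments, consists of the kinase AURKB and the subunits INCENP, survivin (Birc5) and borealin (Cdca8). Incenp had 76.9, 73.0 and 74.7 TPM in WT, 91.4, 94.7 and 91.7 in DIDO3ΔE16 and 86.1, 84.3 and 84.4 in DIDO3ΔCT+HADIDO3. Both mutants were above WT without overlap, and the log2 fold change was 0.24 ± 0.03 in DIDO3ΔE16 (adjusted p = 0.00433) and 0.08 in DIDO3ΔCT+HADIDO3 (adjusted p = 0.162). Aurkb had 133, 123 and 130 TPM in WT, 126, 119 and 124 in DIDO3ΔE16 and 142, 141 and 140 in DIDO3ΔCT+HADIDO3. DIDO3ΔCT+HADIDO3 was the highest group, but the difference passed the adjusted p between the lines alone (−0.17 ± 0.04, adjusted p = 0.0145). For Cdca8 (52.4 to 59.6 TPM) no comparison did so.

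The libraries of Birc5 disagreed within DIDO3ΔE16. Its main site (chr11:117852808-117857743) had 137, 136 and 140 TPM in WT, 138, 39.3 and 37.2 in DIDO3ΔE16 and 164, 169 and 163 in DIDO3ΔCT+HADIDO3. DIDO3ΔE16 replicate 1 lay with WT, and the other DIDO3ΔE16 libraries lay far below. A site that overlaps the main one, from base 117855309 of the same chromosome, had 0.374, 0.480 and 0.740 TPM in WT, 1.33, 205 and 219 in DIDO3ΔE16 and 0.451, 0.454 and 0.580 in DIDO3ΔCT+HADIDO3. The same libraries that were low at the main site were high at this one, and the log2 fold change of the main site in DIDO3ΔE16 was −1.29 ± 0.57 (adjusted p = 0.155). In DIDO3ΔCT+HADIDO3, where the libraries agreed, it was 0.16 ± 0.04 (adjusted p = 0.0246). Sgol1 (shugoshin, the protector of centromeric cohesin) had 91.9, 45.0 and 118 TPM in WT, 116, 82.8 and 160 in DIDO3ΔE16 and 41.0, 42.6 and 120 in DIDO3ΔCT+HADIDO3. High and low libraries occurred in every group, and no adjusted p was below 0.184. The Sgol1 site overlaps an opposite-strand site of Kat2b and shares bases with a second Sgol1 site. Kat2b had 257, 81.7 and 233 TPM in WT, 240, 81.5 and 245 in DIDO3ΔE16 and 48.35, 46.1 and 146 in DIDO3ΔCT+HADIDO3. The part of these neighbours in the spread of Sgol1 was not tested.

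Of the inner kinetochore, the 3 members below WT in DIDO3ΔCT+HADIDO3 at an adjusted p under 0.05 were Cenpa, Cenph and Cenpn, and none passed it in DIDO3ΔE16. Cenpa, the centromeric histone H3 variant, had 172, 180 and 186 TPM in WT, 185, 182 and 179 in DIDO3ΔE16 and 148, 142 and 147 in DIDO3ΔCT+HADIDO3. WT and DIDO3ΔE16 overlapped, and DIDO3ΔCT+HADIDO3 lay below both, at −0.40 ± 0.05 relative to WT (adjusted p = 0.00324) and with 0.34 ± 0.04 between the lines (adjusted p = 0.00107). Cenpn, which recognises CENP-A nucleosomes, had 51.8, 50.0 and 52.8 TPM in WT, 52.3, 45.8 and 50.1 in DIDO3ΔE16 and 42.8, 43.8 and 46.3 in DIDO3ΔCT+HADIDO3, where it was lower by −0.32 ± 0.04 (adjusted p = 0.00362). Cenph, of the same constitutive network, had 43.0, 47.2 and 43.1 TPM in WT, 51.0, 47.2 and 47.6 in DIDO3ΔE16 and 40.8, 35.8 and 38.9 in DIDO3ΔCT+HADIDO3.

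For Cenph the log2 fold change in DIDO3ΔCT+HADIDO3 was −0.31 ± 0.07 (adjusted p = 0.0256), with no overlap with WT, and between the lines it was 0.36 ± 0.07 (adjusted p = 0.0104). Cenpc1, the platform on which the outer kinetochore assembles, had 7.18 to 9.76 TPM, Cenpk had 2.46 to 4.51 and Cenpt 1.65 to 2.87, and none of them passed the adjusted p. Cenpi was steady between 21.4 and 25 TPM except in WT replicate 1, which had 2.9. Cenpl on chromosome 1 had 5.42 to 10.2 TPM with overlap of all groups. The Cenpt site overlaps an opposite-strand site of Tsnaxip1 (45.3 to 226.5 TPM), and the Cenpl site one of Klhl20 (38.3 to 50.8 TPM). The part of the opposite strand in these levels was not tested.

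The outer kinetochore held both members called between the mutant lines. Knl1, the scaffold that recruits BUB1 and BUB3 to kinetochores, had 76.4, 74.9 and 76.3 TPM in WT, 47.0, 51.1 and 53.6 in DIDO3ΔE16 and 80.8, 86.2 and 94.8 in DIDO3ΔCT+HADIDO3. The group means were 75.9 ± 0.835, 50.6 ± 3.33 and 87.3 ± 7.06 TPM (SD, n = 3). DIDO3ΔE16 lay far below every other library, and DIDO3ΔCT+HADIDO3 lay above every WT library. Knl1 fell by 0.77 ± 0.07 on the log2 scale in DIDO3ΔE16 relative to DIDO3ΔCT+HADIDO3 (adjusted p = 0.000542), the only call on a member's main site that was lower in DIDO3ΔE16. Against WT it was lower in DIDO3ΔE16 by −0.65 ± 0.05 (adjusted p = 0.000989), short of the fold threshold, and DIDO3ΔCT+HADIDO3 differed from WT by 0.10 (adjusted p = 0.22). The site (chr2:119104078-119106121, plus strand) is a single feature that shares no base with another on its strand. Its 3′UTR part is 44 of 2044 bases, so the value comes nearly all from the 2 kb added downstream. That 3′UTR ends 1.38 kb upstream of the annotated end of the gene.

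Cenpe, the kinesin that moves chromosomes to the spindle equator, went the other way. It had 29.9, 28.9 and 25.8 TPM in WT, 31.6, 32.6 and 31.2 in DIDO3ΔE16 and 21.5, 18.5 and 19.3 in DIDO3ΔCT+HADIDO3 (chr3:135273240-135275540, plus strand). The means were 28.2 ± 2.13, 31.8 ± 0.722 and 19.8 ± 1.51 TPM (SD, n = 3), with DIDO3ΔCT+HADIDO3 below all other libraries. The log2 fold change was 0.70 ± 0.08 between the lines (adjusted p = 0.00111), just at the fold threshold, and several other ways of processing moved it below. Relative to WT it was −0.61 ± 0.09 in DIDO3ΔCT+HADIDO3 (adjusted p = 0.00488) and 0.11 in DIDO3ΔE16 (adjusted p = 0.225).

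**Figure D3:**
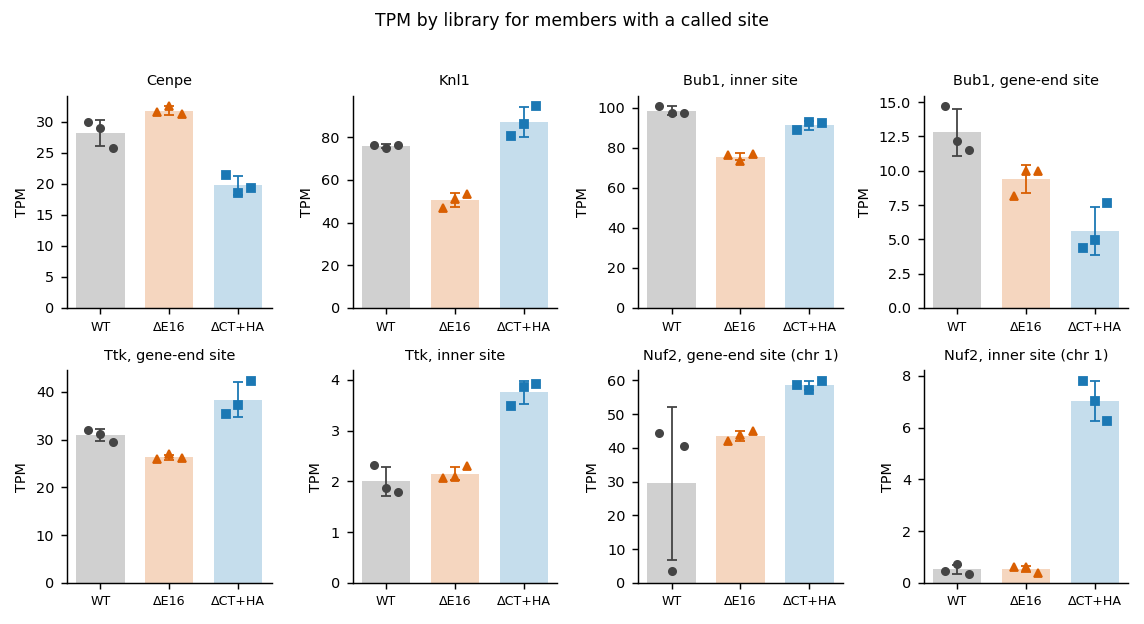
TPM in each library (points) with the group mean (bar) and SD (error bar, n = 3) at the sites of the 5 genes with a called site, Cenpe, Knl1, Bub1, Ttk and Nuf2. DIDO3ΔE16 is the lowest group at Knl1, DIDO3ΔCT+HADIDO3 is the lowest at Cenpe and at the gene-end site of Bub1 and the highest at the inner sites of Ttk and Nuf2.

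Other outer kinetochore genes differed by less than the fold threshold but with separate groups. Zwint, which joins KNL1 to the checkpoint adaptors, had 111, 111 and 103 TPM in WT, 132, 142 and 141 in DIDO3ΔE16 and 93.3, 87.6 and 84.0 in DIDO3ΔCT+HADIDO3. Its pattern was that of Mad1l1, with WT in between: 0.29 ± 0.04 in DIDO3ΔE16 (adjusted p = 0.00596), −0.40 ± 0.06 in DIDO3ΔCT+HADIDO3 (adjusted p = 0.00705) and 0.67 ± 0.06 between the lines (adjusted p = 0.000698). A second Zwint site, which shares bases with this one, had 41.0, 43.2 and 38.6 TPM in WT, 32.9, 38.9 and 36.4 in DIDO3ΔE16 and 40.8, 47.5 and 49.5 in DIDO3ΔCT+HADIDO3. It went the other way, with log2 fold changes of −0.25 in DIDO3ΔE16 against WT (adjusted p = 0.0545) and −0.33 between the lines (adjusted p = 0.0291). With TPM summed over the gene, Zwint differed by 0.14 in DIDO3ΔE16 against WT (adjusted p = 0.0626) and by 0.36 between the lines (adjusted p = 0.000912). Spc24, of the microtubule-binding NDC80 complex, had 82.3, 80.1 and 82.0 TPM in WT, 74.6, 68.3 and 75.5 in DIDO3ΔE16 and 95.5, 104 and 98.8 in DIDO3ΔCT+HADIDO3.

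Spc24 thus had the opposite order to Zwint, with −0.23 ± 0.05 in DIDO3ΔE16 (adjusted p = 0.0237), 0.18 ± 0.04 in DIDO3ΔCT+HADIDO3 (adjusted p = 0.0234) and −0.43 ± 0.06 between the lines (adjusted p = 0.00253). Its partner Spc25 had 122, 119 and 114 TPM in WT, 127, 124 and 126 in DIDO3ΔE16 and 132, 135 and 149 in DIDO3ΔCT+HADIDO3, in this order of groups without overlap. No adjusted p of Spc25 was under 0.05 (0.628, 0.0751 and 0.0585), and neither was any of Ndc80 (3.63 to 6.91 TPM). Mis12, whose complex links the inner and outer layers, had 103, 97.4 and 93.4 TPM in WT, 101, 107 and 107 in DIDO3ΔE16 and 77.6, 82.3 and 88.8 in DIDO3ΔCT+HADIDO3. Only DIDO3ΔCT+HADIDO3 stood apart, at −0.35 ± 0.05 relative to WT (adjusted p = 0.00544) and with 0.36 ± 0.05 between the lines (adjusted p = 0.00211). Kntc1, the ROD subunit that brings dynein to kinetochores, had 9.07, 9.07 and 9.24 TPM in WT, 8.13, 6.81 and 6.93 in DIDO3ΔE16 and 8.45, 7.53 and 7.80 in DIDO3ΔCT+HADIDO3. Both mutants were below WT, at −0.39 ± 0.10 (adjusted p = 0.0356) and −0.30 ± 0.08 (adjusted p = 0.0324).

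On chromosome 1, 829 most abundant sites were compared between DIDO3ΔCT+HADIDO3 and WT, with a median log2 fold change of 0.265 and 22.2% called. Nuf2, of the NDC80 complex, had 44.5, 3.41 and 40.7 TPM in WT at the end of the gene (chr1:169495934-169498788, minus strand), 41.9, 43.7 and 45.1 in DIDO3ΔE16 and 58.5, 57.0 and 60.0 in DIDO3ΔCT+HADIDO3. WT replicate 2-3 fell far out of its group, and WT comparisons gave wide errors (1.17 ± 1.09 and 1.56 ± 1.09, adjusted p = 0.465 and 0.328). Between the lines the log2 fold change was −0.41 ± 0.04 (adjusted p = 0.000697), beside a median of −0.24 for chromosome 1, where 36.0% were called. An inner Nuf2 site 12.2 kb upstream (chr1:169508119-169510315) had 0.465, 0.720 and 0.354 TPM in WT, 0.613, 0.604 and 0.381 in DIDO3ΔE16 and 7.82, 7.03 and 6.26 in DIDO3ΔCT+HADIDO3. It was near the lower end of detection in WT and DIDO3ΔE16 and well above it in each DIDO3ΔCT+HADIDO3 library. The log2 fold change, on the log2(TPM + 0.1) scale, was 3.49 ± 0.26 relative to WT (adjusted p = 0.000685) and −3.49 ± 0.22 between the lines (adjusted p = 0.000194), the widest called difference at any member site. Cenpf, a kinetochore and nuclear matrix protein of G2 and M phase, had 75.0, 72.7 and 72.3 TPM in WT, 79.9, 84.7 and 79.4 in DIDO3ΔE16 and 89.8, 83.0 and 85.4 in DIDO3ΔCT+HADIDO3. Both mutants lay above WT, but no adjusted p was under 0.05 (0.14, 0.0928 and 0.373), and the median rise of chromosome 1 exceeded the 0.13 seen in DIDO3ΔCT+HADIDO3.

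Of the 27 further sites of the 45 genes, those of Bub1, Ttk and Nuf2 described above were the ones called. None of 20 was called in DIDO3ΔE16 relative to WT (limma; 15.1% over all sites), 3 of 21 in DIDO3ΔCT+HADIDO3 (17.3%) and 3 of 20 between the lines (27.4%).

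The regulators of anaphase could not be resolved, since libraries of 1 group disagreed for all 3. Cdc20, the checkpoint's target and activator of the anaphase-promoting complex, had 59.1, 58.4 and 4.83 TPM in WT, 32.1, 35.4 and 34.3 in DIDO3ΔE16 and 71.0, 16.7 and 60.6 in DIDO3ΔCT+HADIDO3. DIDO3ΔE16 was even, while WT replicate 4 and DIDO3ΔCT+HADIDO3 replicate 2 fell below the others of their groups. Espl1 (separase, which cleaves cohesin) had 1.82, 26.9 and 26.7 TPM in WT, 32.3, 16.7 and 17.3 in DIDO3ΔE16 and 14.5, 30.2 and 3.0 in DIDO3ΔCT+HADIDO3. Pttg1 (securin, the inhibitor of separase) had 28.0, 8.19 and 29.7 TPM in WT, 38.0, 9.50 and 10.4 in DIDO3ΔE16 and 10.5, 32.6 and 12 in DIDO3ΔCT+HADIDO3.

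In every group Pttg1 was split between high and low libraries. A second Pttg1 site had 0.029, 0.635 and 0.039 TPM in WT, 0.057, 17.3 and 15.9 in DIDO3ΔE16 and 13.0, 0.035 and 13.2 in DIDO3ΔCT+HADIDO3, high in the mutant libraries where the first site was low. Among all members with at least 10 TPM in some library, a spread over 3-fold was seen in 0 of 15 whose site is a single feature that shares no bases, in 6 of 14 with several features, and in 3 of 8 that share bases with another site. Over all sites at this level it was seen in 0.852%, 36.8% and 52.6%. It thus went with the listing of several transcripts at 1 place, among the members as over all sites. The cause was not tested.

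**Figure D4:**
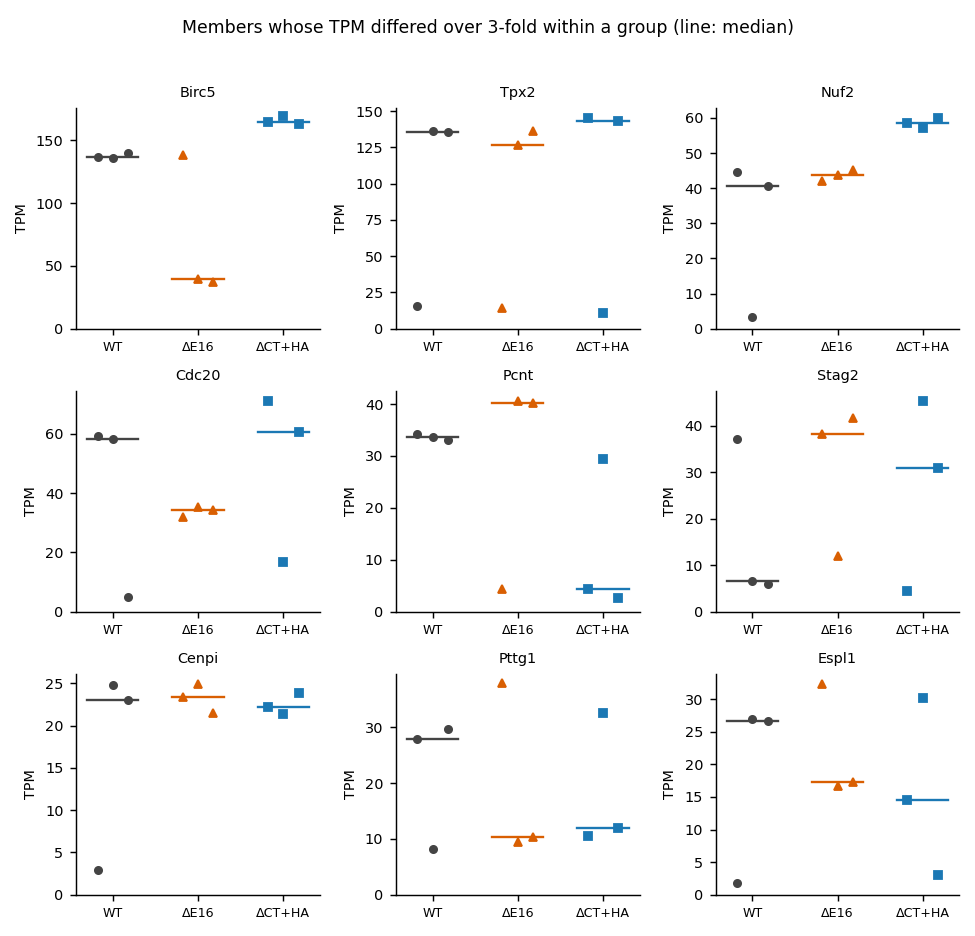
TPM in each of the 9 libraries (points, with the group median as a line) for the 9 genes with at least 10 TPM in some library whose main site differed more than 3-fold between libraries of 1 group. High and low libraries occur within WT and within both mutants, at different replicates for different genes.

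Of the centrosome genes, Sass6, the core of the centriole cartwheel, had 116, 114 and 111 TPM in WT, 109, 108 and 113 in DIDO3ΔE16 and 106, 111 and 121 in DIDO3ΔCT+HADIDO3. It alone among the 5 passed the adjusted p, in DIDO3ΔE16 at −0.11 ± 0.03 (adjusted p = 0.0442), with groups that overlapped. Cep192, which recruits the mitotic kinases to centrosomes, lay between 34.5 and 41.8 TPM in all libraries. Cep152, the PLK4 receptor on centrioles, had 3.52 to 6.57 TPM except for 0.869 in DIDO3ΔCT+HADIDO3 replicate 2. The pericentriolar scaffold Pcnt had 34.1, 33.7 and 33.2 TPM in WT, 4.41, 40.6 and 40.3 in DIDO3ΔE16 and 4.36, 29.5 and 2.65 in DIDO3ΔCT+HADIDO3. WT was even and each mutant held libraries with about as much as WT and libraries far lower. Tpx2, the activator of Aurora A on spindle microtubules, had 15.6, 136 and 136 TPM in WT, 14.2, 127 and 136 in DIDO3ΔE16 and 145, 10.7 and 143 in DIDO3ΔCT+HADIDO3, with 1 low library in each group.

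Cohesin, the ring that holds sister chromatids together, was lower for 2 subunits in DIDO3ΔCT+HADIDO3 by the adjusted p alone. Rad21 had 404, 399 and 365 TPM in WT, 405, 404 and 431 in DIDO3ΔE16 and 368, 361 and 376 in DIDO3ΔCT+HADIDO3. DIDO3ΔE16 lay at or just above the highest WT library, while DIDO3ΔCT+HADIDO3 overlapped WT: the log2 fold change was −0.18 ± 0.04 in DIDO3ΔCT+HADIDO3 relative to WT (adjusted p = 0.0227) and 0.19 ± 0.03 between the lines (adjusted p = 0.00757). Smc1a had 31.9, 32.2 and 33.3 TPM in WT, 31.0, 30.1 and 32.5 in DIDO3ΔE16 and 29.6, 28.3 and 29.1 in DIDO3ΔCT+HADIDO3, which lay below all other libraries (−0.26 ± 0.05 relative to WT, adjusted p = 0.0115). Stag1, an accessory subunit, had 87.0, 82.1 and 79.5 TPM in WT, 81.0, 85.4 and 89.0 in DIDO3ΔE16 and 93.7, 93.9 and 93.6 in DIDO3ΔCT+HADIDO3. DIDO3ΔCT+HADIDO3 lay highest, but neither Stag1 nor Smc3 (34.0 to 40.2 TPM) passed the adjusted p in any comparison. Stag2, an alternative to STAG1 in the ring, had 37.0, 6.63 and 5.96 TPM in WT, 38.1, 11.9 and 41.7 in DIDO3ΔE16 and 4.38, 45.4 and 30.9 in DIDO3ΔCT+HADIDO3, and is among the genes whose libraries disagree.

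Counted by role, kinases and sensors had 1 higher and 4 lower of 8 tested in DIDO3ΔE16 at an adjusted p under 0.05, and 0 higher and 5 lower in DIDO3ΔCT+HADIDO3. For the outer kinetochore the counts were 1 higher and 3 lower of 10 in DIDO3ΔE16, and 1 higher and 4 lower in DIDO3ΔCT+HADIDO3. Over all genes 18.4% were higher and 19.1% lower in DIDO3ΔE16, and 19.3% and 23.4% in DIDO3ΔCT+HADIDO3. Between the lines the kinases and sensors had 3 higher and 3 lower in DIDO3ΔE16, and the outer kinetochore likewise, beside 27.8% higher and 25% lower over all genes. The 7 members past the adjusted p in both mutants against the same WT libraries were Bub1, Mad2l1, Plk4 and Kntc1, lower in both, and Mad1l1, Zwint and Spc24, which lay on opposite sides of WT. With the flow cell family as a covariate, WT replicate 2-3 alone stands for WT, so that fit cannot decide which of the 7 hold. Its log2 fold changes had the sign of the main fit for all 7 in both comparisons. The main fit holds the same WT library and the same mutant libraries, so this agreement is no separate support. The groups did not overlap for 17 of 43 members in DIDO3ΔE16 against WT, 25 in DIDO3ΔCT+HADIDO3 against WT and 22 between the lines, against 53.3%, 56.7% and 64.6% of all genes.

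The same measures were taken for lists of related genes. Of 22 other kinetochore genes tested, 1 was called in DIDO3ΔE16, 1 in DIDO3ΔCT+HADIDO3 and 5 between the lines (over all genes 16%, 18.1% and 27.7%), and of 15 genes of the anaphase-promoting complex 1, 0 and 2 (limma; 11 of the 15 had an unadjusted p under 0.05 where none was called). Cenpb, which binds the CENP-B box of centromeric repeats, had 76.2, 77.3 and 69.8 TPM in WT, 127, 135 and 129 in DIDO3ΔE16 and 93.9, 88.6 and 79.6 in DIDO3ΔCT+HADIDO3. It rose by 0.74 ± 0.05 on the log2 scale in DIDO3ΔE16 (adjusted p = 0.000531), with all 3 libraries above every other. Ska1, of the complex that couples kinetochores to microtubules, had 8.56, 10.3 and 9.64 TPM in WT, 9.57, 9.55 and 10.2 in DIDO3ΔE16 and 7.31, 3.24 and 3.19 in DIDO3ΔCT+HADIDO3, where it fell by 1.24 ± 0.36 (adjusted p = 0.0466). Between the lines, Ska1 (1.21), Cenpm (1.14) and Gsg2 (1.07), the haspin kinase were higher in DIDO3ΔE16, and the chromosome 1 genes Nsl1 (−0.95), of the MIS12 complex, and Sgol2a (−0.70), a shugoshin, were lower. Anapc15, a small subunit of the anaphase-promoting complex, had 11.3, 12.8 and 11.6 TPM in WT, 1.94, 1.84 and 6.09 in DIDO3ΔE16 and 16.7, 16.9 and 16.7 in DIDO3ΔCT+HADIDO3. DIDO3ΔE16 was lowest, by −2.11 ± 0.48 relative to WT (adjusted p = 0.0243), at a site that shares bases with another on its strand, and Cdc26, of the same complex, was called between the lines (0.96 ± 0.06, adjusted p = 0.000159). In this complex 3 genes were higher and 8 lower in DIDO3ΔCT+HADIDO3 at an adjusted p under 0.05, with a list median of −0.22, beside 19.3% higher, 23.4% lower and a median of −0.05 over all genes.

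Of 14 regulators of cohesin and condensin subunits, 2 were called in DIDO3ΔE16, 0 in DIDO3ΔCT+HADIDO3 (limma; 4 at an unadjusted p under 0.05) and 2 between the lines. Mau2, a part of the cohesin loader, had 49.9, 46.5 and 55.4 TPM in WT, 5.42, 6.55 and 6.22 in DIDO3ΔE16 and 71.7, 73.6 and 65.0 in DIDO3ΔCT+HADIDO3. DIDO3ΔE16 was far below, by −3.10 ± 0.10 (adjusted p = 0.000139), at a site that shares bases with another on its strand. Ncapg, a condensin I subunit, had 8.34, 7.58 and 6.17 TPM in WT, 2.83, 3.85 and 3.22 in DIDO3ΔE16 and 7.41, 8.86 and 10.4 in DIDO3ΔCT+HADIDO3. It also fell in DIDO3ΔE16, by 1.20 on the log2 scale (adjusted p = 0.00473), and in DIDO3ΔCT+HADIDO3 its libraries overlapped WT.

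Of 26 other centrosome genes, 2 were called in DIDO3ΔE16, 2 in DIDO3ΔCT+HADIDO3 and 6 between the lines, against the same shares over all genes. Haus5, a subunit of augmin, which nucleates microtubules from spindle microtubules, had 16.5, 16.4 and 17.0 TPM in WT, 7.02, 7.28 and 6.84 in DIDO3ΔE16 and 19.3, 18.6 and 19.6 in DIDO3ΔCT+HADIDO3, and fell by 1.29 ± 0.06 on the log2 scale in DIDO3ΔE16 (adjusted p = 0.000302). Haus3 had 6.51, 4.57 and 4.96 TPM in WT, 9.84, 9.93 and 10.1 in DIDO3ΔE16 and 4.30, 6.34 and 5.32 in DIDO3ΔCT+HADIDO3, and rose in DIDO3ΔE16 by 0.84 (adjusted p = 0.00889). Both had DIDO3ΔE16 clear of the other libraries, below them for Haus5 and above them for Haus3.

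In DIDO3ΔCT+HADIDO3 it was Haus4 that fell, with 71.9, 75.1 and 76.7 TPM in WT, 64.8, 69.5 and 66.4 in DIDO3ΔE16 and 31.2, 32.8 and 33.6 in DIDO3ΔCT+HADIDO3 (−1.30 ± 0.05, adjusted p = 0.000126). Cep135, a centriole assembly protein, had 10.3, 10.8 and 9.04 TPM in WT, 10.4, 9.30 and 8.42 in DIDO3ΔE16 and 17.0, 17.1 and 19 in DIDO3ΔCT+HADIDO3, where it rose by 0.71 (adjusted p = 0.00254). Between the lines Tubgcp3, of the microtubule-nucleating ring, was also called (0.79), and so was Haus2 (−2.04), whose WT replicate 2-3 had 123 TPM beside 20.7 and 21.9. Of 18 spindle motors and microtubule regulators, 0, 1 and 0 were called by limma, with 9, 6 and 8 at an unadjusted p under 0.05. The called gene was Bora, the activator of Aurora A, with 59.1, 48.3 and 45.4 TPM in WT, 59.1, 62.0 and 64.7 in DIDO3ΔE16 and 101, 94.1 and 104 in DIDO3ΔCT+HADIDO3 (0.88, adjusted p = 0.00244), at a site that overlaps one on the opposite strand. None of 15 S phase genes and none of 13 G2 and M phase genes was called by limma in any comparison, where 6, 8 and 5 of the former and 5, 7 and 7 of the latter had an unadjusted p under 0.05.

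**Figure D5:**
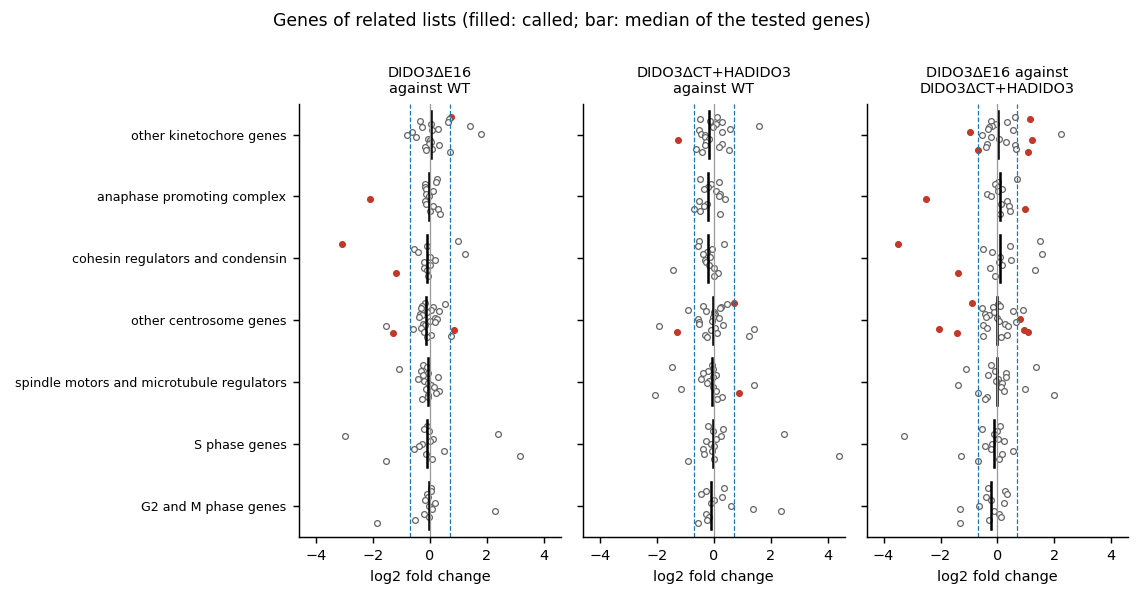
Log2 fold change of the main site of each tested gene (points) in 7 lists of related genes, for the 3 comparisons, with the list median as a bar; filled points were called and dashed lines mark ±0.7. Calls lie among the other kinetochore, anaphase-promoting complex, centrosome and cohesin genes and at Bora, while the list medians lie between −0.22 and 0.09.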

How the data were processed

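The authors used BWA-MEM 0.7.15 for alignment to mm10, Picard for the removal of duplicates and StringTie 1.3.3 on reference features only. The deposited TPM and coverage per feature and library were used here, and read counts per feature were not. The authors tested with edgeR. The deposited values carry 9 libraries, because WT replicates 2 and 3 of the labels share 1 library number.

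Features were named from mm10 coordinates, and the TPM of features with identical coordinates and exons was added up. Scaling between libraries used the mean of log2 ratios after trimming 30% from each end, and log2(TPM + 0.1) was compared with limma 3.58.1 (R 4.3.3; trend and robust moderation, Benjamini-Hochberg adjustment over all sites) for sites above 0 TPM in every library of a comparison. Without scaling, the median log2 fold change over all tested sites was 0.049 in DIDO3ΔE16 and 0.083 in DIDO3ΔCT+HADIDO3 against WT. With scaling these medians were −0.012 and −0.014, so unscaled TPM of the mutants lies slightly high beside WT. The method was tested on simulated data. Further steps used Python 3.11.15 with pandas 2.3.3.

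The 45 genes, the related lists and the tests were chosen with earlier results of these data known. By rule, values per library were given for genes with a called site, for the 2 most abundant genes of each role and for called genes of the related lists, at most 4 per direction and list. Those of other genes were chosen after their values were seen. Alternatives are given in the closing section.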

Additional observations from a re-analysis of the deposited data

Results flagged for a closer look

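Compared directly with each other in limma, DIDO3ΔE16 and DIDO3ΔCT+HADIDO3 differed past both thresholds at 5 member sites. At the main site of Knl1 the log2 difference was −0.77, with DIDO3ΔE16 below every other library, and at Cenpe it was 0.70, with DIDO3ΔCT+HADIDO3 below every other library. At the gene-end site of Bub1 it was 0.78 (0.62 to 1.0 over 17 alternatives, of which 11 passed), at the inner site of Ttk −0.76 (16 of 17 passed), and at the inner site of Nuf2, on chromosome 1, −3.49. At all 5 the 3 libraries of one line lay apart from the 3 of the other, as they did for 64.6% of the most abundant sites of all genes. These differences use no WT library. They lie within 1 flow cell family as grouped here, but not within 1 run identifier, and a batch between the lines was not tested. Causes were not tested.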

How the results depend on the processing

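In DIDO3ΔE16 against WT, the 0 called members became 1 with single features (Mis12) and with a fold threshold of 1.5 (Knl1), and ranged from 0 to 1 when 1 library was left out: Cdc20 was called without WT replicate 4, and Birc5 without DIDO3ΔE16 replicate 1. In DIDO3ΔCT+HADIDO3 against WT, 0 became 1 with single features (Stag1) and with a fold of 1.5 (Cenpe), and ranged from 0 to 1 with 1 library left out (Pcnt without DIDO3ΔCT+HADIDO3 replicate 2). With the flow cell family as a covariate, WT replicate 2-3 alone stands for WT. The log2 fold change of Nuf2 was then 3.57 in DIDO3ΔE16 and 3.96 in DIDO3ΔCT+HADIDO3. That WT library had 3.41 TPM of Nuf2, beside 44.5 and 40.7 in the other WT libraries. Between the lines, 2 became 1 with a pseudocount of 1 TPM, without scaling, with scaling without chromosome 1 and with TPM summed over a gene, 5 with single features and 4 with a fold of 1.5, and ranged from 2 to 3 with 1 library left out. In the settings that gave 1, Knl1 was the gene called and Cenpe fell just short (0.67 to 0.69). Knl1 passed in 19 of 19 alternatives (−0.81 to −0.72) and Cenpe in 12 of 19 (0.65 to 0.77). The log2 fold change of Cdc20 in DIDO3ΔE16 was between −0.85 (without WT replicate 4, opposite in sign) and 0.93 with 1 library left out, and that of Stag1 in DIDO3ΔCT+HADIDO3 with single features was −0.85. With single features Bub3 also reversed, to 0.24 in DIDO3ΔCT+HADIDO3 against WT and −0.35 between the lines. Pcnt in DIDO3ΔE16 against WT ranged from −1.38 to 0.19 with 1 library left out, the latter without DIDO3ΔE16 replicate 1. The causes were not tested. Over all alternatives of the 138 named log2 fold changes, 2494 values kept their sign and their side of the threshold, 133 changed sign with an adjusted p of 0.05 or more in both fits, 13 gained and 20 lost a call. These totals include the fits with the flow cell family and with the replicate number as a block. Sign changes were seen in 54 of the 138, among them Birc5, Pttg1, Cenpi and Espl1 in DIDO3ΔE16 against WT, but in 2 of the 50 that had passed the adjusted p, both of them of Bub3.

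The replicate number as a block gave 0, 0 and 2 called members, as without it. Deviations of same-numbered libraries correlated at 0.001 to 0.035, so the numbers were not taken to pair the samples. With the block, members at an adjusted p under 0.05 fell to 0 in both comparisons with WT and to 14 between the lines. In the comparisons with WT, the numbers 3 and 4 each occur in 1 group only. The block fit there rests on the libraries numbered 1 and 2 alone, with WT replicate 2-3 taken as 2. It loses precision by its design, so the calls and counts it loses against WT say little about the results. In this block fit the gene-end site of Bub1 and the inner sites of Nuf2 and Ttk lost their calls in DIDO3ΔCT+HADIDO3 against WT (adjusted p = 0.0828, 0.0796 and 0.171, limma). With the flow cell family, where WT replicate 2-3 alone stands for WT, the log2 fold change of the Bub1 site was −1.24. The Ttk site fell under the fold threshold with a pseudocount of 1 TPM (0.59) and with quantile normalization (0.65). With 1 library left out, members at an adjusted p under 0.05 numbered 6 to 11 in DIDO3ΔE16 and 12 to 15 in DIDO3ΔCT+HADIDO3 against WT. Depth per site was not given as counts, so the precision of low sites such as the inner sites of Ttk and Nuf2 rests on 3 libraries.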
